A study of Mus musculus with 12 samples.

Results

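The miRNAs described here are the mature arms of miR-99a, miR-99b, miR-100, miR-125a and miR-125b, which lie beside let-7 genes in the mouse genome. They were chosen by name, every arm and copy in the table included, and are listed there as mmu-miR-99a-5p, mmu-miR-99b-5p, mmu-miR-100-5p, mmu-miR-125a-5p and mmu-miR-125b-5p with their 3p partners mmu-miR-99a-3p, mmu-miR-99b-3p, mmu-miR-100-3p, mmu-miR-125a-3p, mmu-miR-125b-1-3p and mmu-miR-125b-2-3p. The species prefix is left out from here on. This gave 11 of the 1042 miRNAs measured, 5 of them 5p arms and 6 of them 3p arms, and all 11 held at least 10 reads in at least 2 libraries, as 732 of the 1042 did.

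Small RNA of 18 to 30 nucleotides was sequenced in 12 libraries from 5 mouse cell types. MEFs, fibroblasts from embryos of the C57B6/129SvJae F1 background, gave 3 libraries, and ESCs of the line E14, with the 129/ola background, gave 3. The 3 reprogrammed types had the background of the MEFs and gave 2 libraries each: NT-iPSCs, made by placing an iPSC nucleus in an enucleated oocyte, NT-ESCs, made in the same way from a MEF nucleus, and iPSCs, made with dox-inducible c-Myc, Klf4, Oct4 and Sox2. The 4 pluripotent types were kept on irradiated MEF feeder cells in medium with LIF. Libraries of a type were batches of RNA from 1 line, so p-values measure the spread between these samples and not between lines. In any contrast with ESCs the strain and the cell type cannot be told apart. By the paper's sequencing summary, every reprogrammed library had more total sequenced reads and a larger share of 5′ adaptor contaminants than any MEF or ESC library. Shares of reads without a 3′ adaptor or without an insert were smaller in every reprogrammed library. In contrasts of reprogrammed types with MEFs or ESCs, these sequencing differences and the cell type cannot be told apart either.

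A miRNA is cut from a hairpin, 1 strand of which (the 5p or the 3p arm) is usually kept by Argonaute while the other is degraded. Bases 2 to 8 of the kept strand, the seed, pair with target mRNAs, so arms with 1 seed can share targets. The miR-99/100 and miR-125 genes arose beside let-7 in ancient clusters. let-7 and miR-125 both bind the mRNA of Lin28, a stem cell RNA-binding protein that blocks the maturation of let-7, and mTOR is a known target of the miR-99/100 seed.

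The 5p arms fall into 2 groups by seed, and the sequences below show how little separates the members within each. They are those of RefSeq (GRCm38.p6), with the seed in capitals. Both genomic copies of miR-125b give the same 5p arm and were 1 entry of the table.
miR-99a-5p: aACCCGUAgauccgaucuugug
miR-99b-5p: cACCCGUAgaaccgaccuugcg
miR-100-5p: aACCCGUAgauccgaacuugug
miR-125a-5p: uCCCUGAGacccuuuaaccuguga
miR-125b-5p: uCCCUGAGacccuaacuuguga

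With positions counted from 1 at the 5′ end and the base of miR-99a-5p first, miR-100-5p differed by U16A alone, and miR-99b-5p differed by A1C, U11A, U16C and U21C. miR-125a-5p (24 bases) and miR-125b-5p (22 bases) began with the same 13 bases and, aligned over their length, had 21 identities, 1 mismatch and 2 gaps. Among the 804 miRNAs of the table that had a sequence, the seed ACCCGUA occurred in the 3 arms of miR-99a, miR-99b and miR-100 only. The seed CCCUGAG occurred in miR-125a-5p, miR-125b-5p and miR-351-5p. How the authors assigned reads that match both miR-99a-5p and miR-100-5p with a sequencing error is not given in the sources used here.

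The 3p arms of the hairpins are shown because their reads changed differently from those of their 5p partners. Unlike the 5p arm, the 3p arms of the 2 miR-125b copies differ in their seeds, so their reads could be assigned to a copy.
miR-99b-3p: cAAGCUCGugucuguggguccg
miR-125b-1-3p: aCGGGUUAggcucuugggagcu
miR-125b-2-3p: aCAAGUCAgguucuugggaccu

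By the GENCODE annotation of GRCm38, all hairpins of the 3 clusters lie on the plus strand. Mir100 (chr9:41531425-41531504), Mirlet7a-2 (chr9:41536716-41536811) and Mir125b-1 (chr9:41581926-41582002) span 50578 bp within introns of the noncoding transcripts 3110039I08Rik and Gm49317. Mir125b-1 also overlaps an exon of the transcript Gm28119, and Mir100 lies opposite Gm48742, a transcript of the other strand. Mir99a (chr16:77598936-77599000), Mirlet7c-1 (chr16:77599657-77599750) and Mir125b-2 (chr16:77646273-77646343) span 47408 bp within introns of Mir99ahg, a long noncoding host gene. Mir125b-2 also overlaps an exon of the transcript C130023A14Rik, and Mir99a and Mirlet7c-1 lie opposite introns of Gm11146, annotated as protein-coding. Mir99b (chr17:17830188-17830257) and Mirlet7e (chr17:17830352-17830444) are intronic in the protein-coding gene Spaca6, and Mir125a (chr17:17830812-17830879) overlaps an exon of it. Mirlet7e lies opposite Gm25927, annotated as a miRNA. That cluster spans 692 bp.

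The deposited level of a miRNA is a variance-stabilized (VST) value on a log2 scale, from which whole reads were recovered. Recovered miRNA reads per library lay between 4863365 and 8608689. MEFs had 7867514 to 8608689 reads but size factors of 0.724 to 0.779, below the 0.843 to 0.950 of ESCs and the 1.09 to 1.37 of reprogrammed libraries, so contrasts with MEFs depend on the scaling. With total miRNA reads in place of the deposited size factors, the median difference over the 732 miRNAs between MEFs and the 4 pluripotent types shifted by -0.92 on the log2 scale, and the higher share of all calls went from 46% to 32.5%. Of 10 pluripotent marker miRNAs (the miR-290 and miR-302 clusters), the summed normalized reads were at most 104.9 in a MEF library and at least 411244 in a library of the other types. Of 9 fibroblast marker miRNAs, 8 were found, 2 of which, miR-199a-3p and miR-199b-3p, are 1 mature sequence under 2 names. With that sequence counted once, the summed normalized reads lay at 78.8% to 134% of the MEF mean in MEF libraries, 28.2% to 32.5% in ESCs, 26.5% to 30.8% in NT-iPSCs, 22.5% to 23.8% in NT-ESCs and 6.60% to 6.78% in iPSCs. Counted under both names they lay at 26.2% to 30.0% in ESCs, 44.3% to 52.4% in NT-iPSCs, 38.0% to 40.1% in NT-ESCs and 10.8% to 11.4% in iPSCs, so the place of ESCs in this order depends on the double entry. The 2 names made up 91.0% to 95.0% of the latter sum in reprogrammed libraries, whereas miR-143-3p made up 89.4% to 92.4% in ESCs. None of the 8 was at 0 in any library. In these bulk samples fewer cells of a type and less RNA per cell cannot be told apart.

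With the deposited scaling all 5 of the 5p arms were highest on average in MEFs, although with total read scaling miR-125a-5p in NT-ESCs and NT-iPSCs lay at 0.03 and 0.42 relative to MEFs on the log2 scale. Of these 5, the arms with the seed ACCCGUA were the furthest below MEFs in the reprogrammed types. miR-100-5p had VST levels of 16.34, 16.33 and 16.35 in MEFs, 10.51 and 10.35 in NT-iPSCs, 10.08 and 10.16 in NT-ESCs, 9.12 and 8.91 in iPSCs, and 13.27, 13.23 and 13.52 in ESCs. The MEF libraries were high, the ESC libraries intermediate and the 6 reprogrammed libraries low, with no overlap between these sets. As normalized reads, the mean of ESCs was 12.6% of that of MEFs, and the means of NT-iPSCs, NT-ESCs and iPSCs were 1.66%, 1.34% and 0.622% of it. NT-iPSCs and NT-ESCs, neighbours in this order, were 0.31 ± 0.16 (SE) apart in the limma test described below (adjusted p = 0.211), and the other neighbours differed. The reads themselves numbered 14602 to 15661 in a MEF library and 151 to 413 in a reprogrammed library.

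miR-99b-5p, the member with most reads in MEFs, followed the same order of cell types at a higher level. Its VST levels were 19.19, 19.79 and 19.93 in MEFs, 16.03 and 16.19 in NT-iPSCs, 15.92 and 16.01 in NT-ESCs, 15.77 and 15.83 in iPSCs, and 18.11, 17.98 and 18.14 in ESCs. The reprogrammed libraries lay close together, all of them below the ESC libraries, and neighbours among them did not pass the test (adjusted p = 0.723 and 0.613). With total read scaling their order turned round, NT-ESCs and NT-iPSCs lying at -0.19 and -0.23 relative to iPSCs (adjusted p = 0.593 and 0.496). miR-99a-5p, 1 base from miR-100-5p, did not follow it among the pluripotent types. It had VST levels of 13.72, 13.72 and 13.76 in MEFs, 10.93 and 10.85 in NT-iPSCs, 10.23 and 10.11 in NT-ESCs, 8.48 and 9.10 in iPSCs, and 9.84, 9.84 and 10.16 in ESCs. Here ESCs did not stand above all reprogrammed cells: the iPSC libraries were lowest, the NT-iPSC libraries were the highest outside MEFs, and the NT-ESC and ESC libraries overlapped.

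The members with the seed CCCUGAG, miR-125b-5p and miR-125a-5p, were less reduced in the reprogrammed types. miR-351-5p, which bears that seed but is no member, lay at -3.08, -3.47 and -3.80 against MEFs in NT-iPSCs, NT-ESCs and iPSCs. miR-125b-5p had VST levels of 17.46, 17.17 and 17.67 in MEFs, 16.68 and 16.54 in NT-iPSCs, 16.12 and 16.35 in NT-ESCs, 14.48 and 14.74 in iPSCs, and 15.21, 15.07 and 15.03 in ESCs. The order was MEFs, NT-iPSCs, NT-ESCs, ESCs and iPSCs with no overlap between neighbours, although NT-iPSCs and NT-ESCs were 0.38 ± 0.18 (SE) apart in that test (adjusted p = 0.201). miR-125a-5p had VST levels of 14.59, 15.25 and 15.29 in MEFs, 14.26 and 15.13 in NT-iPSCs, 14.15 and 14.10 in NT-ESCs, 13.46 and 13.72 in iPSCs, and 14.02, 13.80 and 13.72 in ESCs. Its mean levels had the same order as those of miR-125b-5p, but no pair of neighbours in that order passed the test (adjusted p of 0.222 to 0.401), and NT-iPSC library 52 lay within the range of the MEFs.

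**Figure D1:**
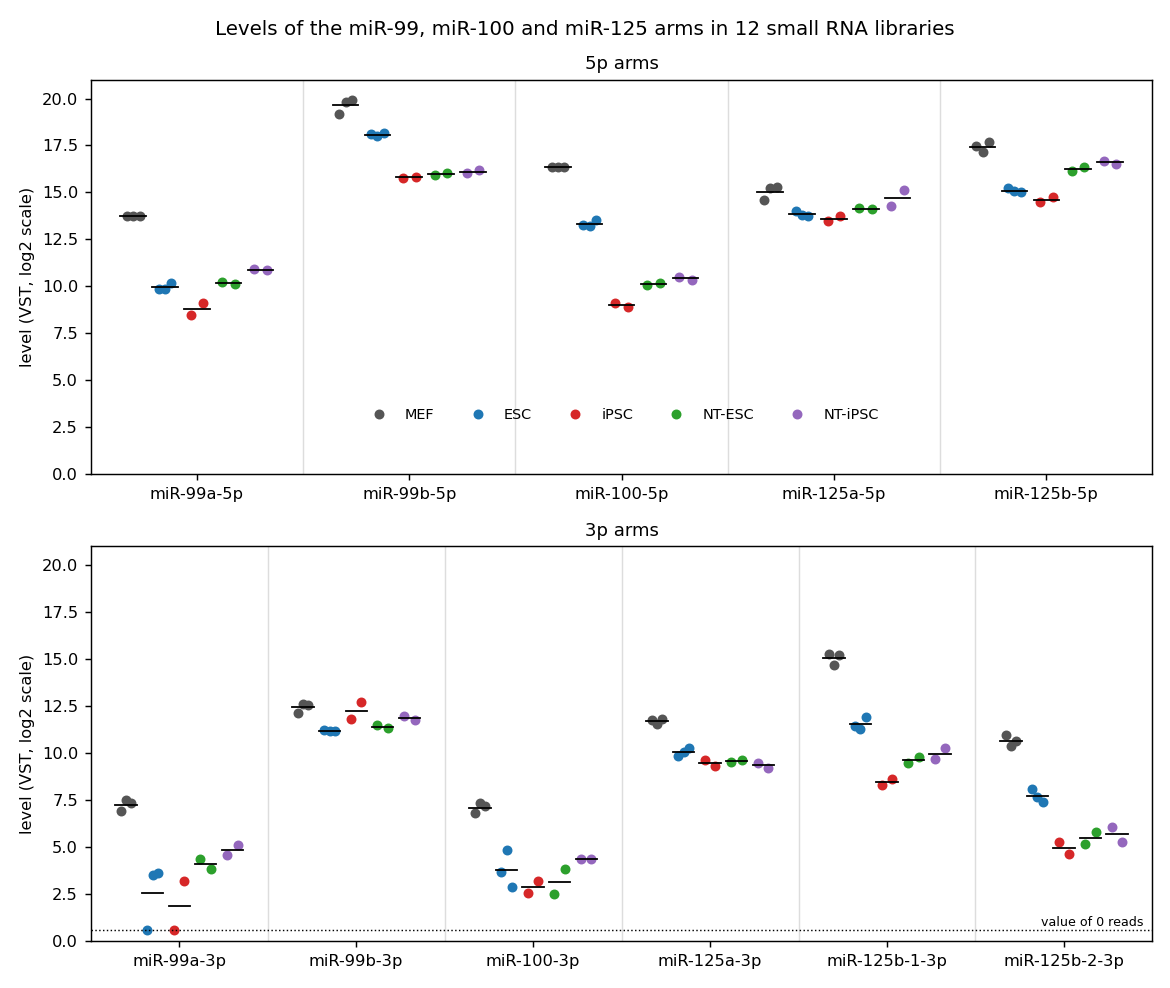
VST level (log2 scale) of each arm in the 12 libraries, 5p arms above and 3p arms below, with points for libraries coloured by cell type and short lines for group means. miR-99b-5p and miR-100-5p step down from MEFs to ESCs to reprogrammed cells, whereas miR-125b-5p is higher in NT-ESCs (16.12 and 16.35) and NT-iPSCs (16.68 and 16.54) than in ESCs (15.03 to 15.21).

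Which of these miRNAs distinguished the somatic cells from pluripotent cells was asked with limma over all 732 miRNAs. Against the mean of the 4 pluripotent types, all 11 arms were higher in MEFs by an adjusted p under 0.05, where 39.8% of all miRNAs tested were higher by that rule (86.5% were called in either direction). The median difference over the 11 arms was 3.56 and over all miRNAs tested -0.29. miR-100-5p was 5.61 ± 0.11 (SE) higher (adjusted p = 1.26e-12), miR-125b-1-3p was 5.15 ± 0.19 higher (adjusted p = 2.93e-10) and miR-125b-2-3p 4.71 ± 0.27 (adjusted p = 1.04e-08). The smallest differences were those of miR-125a-5p at 0.98 ± 0.20 (adjusted p = 0.000596) and miR-99b-3p at 0.75 ± 0.18 (adjusted p = 0.00224), and these were the 2 arms whose MEF libraries overlapped with pluripotent libraries. The other 9 did not overlap, where 25% of all miRNAs tested were higher in MEFs without overlap. The counts of 11 and 9 include miR-99a-3p and miR-100-3p, which passed the read filter through MEF libraries alone. Their higher level in MEFs was largely set by that filter. With scaling to total miRNA reads, miR-125a-5p lay at 0.00 (adjusted p = 0.995) and miR-99b-3p lay at -0.23 (adjusted p = 0.241), and with a TMM-type scaling miR-99b-3p lay at 0.36 (adjusted p = 0.0617). In a fit to the groups compared alone it lay at 0.80 (adjusted p = 0.0803).

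Against ESCs alone, again all 11 arms were higher in MEFs and none overlapped. Of all miRNAs tested, 39.1% were higher by the adjusted p (79% were called in either direction) and 40% were higher without overlap. The place of miR-99a-3p and miR-100-3p in these counts was again largely set by the filter, which they passed through MEF libraries alone. The differences ran from 1.20 ± 0.24 for miR-125a-5p (adjusted p = 0.000757) to 4.69 ± 0.84 for miR-99a-3p (adjusted p = 0.000349), which had 21 to 34 reads in MEFs and 0 to 2 in ESCs. Among the well-covered arms the difference was largest for miR-99a-5p (3.78 ± 0.17, adjusted p = 5.26e-09), followed by miR-125b-1-3p (3.50 ± 0.24, adjusted p = 1.13e-07) and miR-100-5p (3.0 ± 0.13, adjusted p = 2.78e-09). Under total read scaling miR-125a-5p (0.31, adjusted p = 0.308) and miR-99b-3p (0.35, adjusted p = 0.17) were no longer called.

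Each reprogrammed type was then set against MEFs, the cells from which all 3 were derived. In NT-iPSCs 9 arms were lower, where 36.3% of all miRNAs tested were lower and 83.1% were called in either direction. In NT-ESCs 11 were lower (background 38.1% lower, 84% in either direction), and in iPSCs 10 (background 39.2% and 87.8%). These counts include miR-99a-3p and miR-100-3p, which passed the filter through MEF libraries alone, so that their lower level was largely set by it. No arm was called higher than in MEFs, except miR-99b-3p in iPSCs with total read scaling (1.14, adjusted p = 0.000977). The difference of miR-100-5p was -5.91 for NT-iPSCs (adjusted p = 1.89e-11), -6.22 for NT-ESCs (adjusted p = 1.08e-11) and -7.32 for iPSCs (adjusted p = 3.73e-12), the largest of the 11 arms in each. That of miR-125b-5p was -0.82 for NT-iPSCs (adjusted p = 0.000778), -1.20 for NT-ESCs (adjusted p = 3.99e-05) and -2.83 for iPSCs (adjusted p = 2.03e-08). The arms not called were miR-99b-3p in iPSCs (-0.17, adjusted p = 0.532) and miR-99b-3p and miR-125a-5p in NT-iPSCs (-0.56 and -0.35, adjusted p = 0.0517 and 0.241). miR-99b-3p was called in iPSCs without iPSC library 63 (-0.63, adjusted p = 0.019) and in NT-iPSCs without MEF library 13 (-0.71, adjusted p = 0.0219) or either iPSC library (-0.56, adjusted p = 0.0102 and 0.0103). In NT-iPSCs it was also called on the scale of log2 normalized reads plus 1 (adjusted p = 0.0465), with voom (adjusted p = 0.034), with a minimum of 100 reads (adjusted p = 0.0496) and in a fit to the 2 types alone (adjusted p = 0.042), each at -0.56. miR-125a-5p was called in NT-iPSCs without MEF library 13 (-0.58, adjusted p = 0.0455) or NT-iPSC library 52 (-0.78, adjusted p = 0.0244). The call of miR-99a-3p was lost in NT-ESCs without NT-ESC library 72 (adjusted p = 0.0563), and in NT-iPSCs without MEF library 14 or 15 or either NT-iPSC library (adjusted p of 0.0673 to 0.145). With upper quartile scaling these 3 were called too, miR-99b-3p at -0.64 for iPSCs (adjusted p = 0.0259) and at -0.96 for NT-iPSCs (adjusted p = 0.00304) and miR-125a-5p at -0.74 in NT-iPSCs (adjusted p = 0.0224), so that all 11 arms were lower in both types. Under total read scaling 7 arms were lower in NT-iPSCs, the calls of miR-99a-3p (-1.65, adjusted p = 0.148) and miR-125b-5p (-0.06, adjusted p = 0.732) being lost, and 7 were lower in NT-ESCs, with miR-125b-5p at -0.25 (adjusted p = 0.145), miR-125a-5p at 0.03 (adjusted p = 0.928), miR-99b-3p at -0.06 (adjusted p = 0.817) and miR-99a-3p at -2.26 (adjusted p = 0.0552). In iPSCs 9 were lower under it, miR-125a-5p lying at -0.15 (adjusted p = 0.651) and miR-125b-5p, still called, at -1.52 (adjusted p = 1.62e-06). With a TMM-type scaling 8 were lower in NT-iPSCs, without miR-99a-3p (-2.09, adjusted p = 0.0635), and 10 in NT-ESCs, without miR-125a-5p (-0.54, adjusted p = 0.0543). These contrasts and those against ESCs share the reprogrammed libraries.

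How closely the reprogrammed cells came to ESCs differed between the members. miR-100-5p and miR-99b-5p were below the ESC level in all 3 reprogrammed types. For miR-100-5p the difference from ESCs was -2.91 in NT-iPSCs, -3.22 in NT-ESCs and -4.33 in iPSCs, each with an SE of 0.14 (adjusted p = 8.46e-09, 3.73e-09 and 6.22e-10). For miR-99b-5p it was -1.96, -2.11 and -2.28 in the same order, each with an SE of 0.20 (adjusted p = 3.19e-06, 1.78e-06 and 8.52e-07). Over all 11 arms, NT-iPSCs had 5 below and 5 above the ESC level, where 36.5% of all miRNAs tested were lower and 41.1% higher (77.6% in either direction). With total read or TMM-type scaling 3 were above in NT-iPSCs, the calls of miR-99b-3p and miR-99a-3p being lost. NT-ESCs had 5 below and 1 above, where 36.1% were lower and 39.8% higher (75.8%), and iPSCs had 7 below and 1 above, where 36.1% were lower and 39.8% higher (75.8%). The 3 contrasts share the ESC libraries.

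miR-125b-5p and miR-99a-5p were called on different sides of the ESC level in different reprogrammed types. miR-125b-5p was 0.50 ± 0.17 lower than in ESCs in iPSCs (adjusted p = 0.0188), 1.13 ± 0.17 higher in NT-ESCs (adjusted p = 8.44e-05) and 1.51 ± 0.17 higher in NT-iPSCs (adjusted p = 7.81e-06). The lower level in iPSCs was not called without iPSC library 62 (-0.36, adjusted p = 0.144), without ESC library 2 (-0.44, adjusted p = 0.0566) with upper quartile scaling (-0.33, adjusted p = 0.0798) or with total read scaling (-0.08, adjusted p = 0.647). miR-99a-5p was 1.15 ± 0.19 lower in iPSCs (adjusted p = 0.000227, and -0.74 with adjusted p = 0.00383 under total read scaling) and 0.95 ± 0.19 higher in NT-iPSCs (adjusted p = 0.000953). Its value in NT-ESCs was 0.22 ± 0.19 (adjusted p = 0.314), called as higher with upper quartile scaling (0.46, adjusted p = 0.0346). miR-125a-5p was higher than in ESCs in NT-iPSCs only by the test (0.85 ± 0.27, adjusted p = 0.013), and the value was 0.42 without NT-iPSC library 52 (adjusted p = 0.19) and 1.28 without library 51 (adjusted p = 0.00197). Its values in NT-ESCs and iPSCs were 0.28 and -0.26 (adjusted p = 0.353 and 0.401).

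The fibroblast markers did not share 1 order among the pluripotent types, and the part of fibroblast RNA in the levels of the members was not tested. Against ESCs, 4 of the 8 markers were higher and 4 lower in NT-iPSCs, 4 and 4 in NT-ESCs, and 2 and 4 in iPSCs, with both names of the miR-199 sequence counted. miR-143-3p was at 35.1% of its MEF mean in ESCs and at 0.960% to 2.92% in the reprogrammed types, and miR-199a-5p was at 9.21% and at 0.932% to 4.87%. The opposite arm of the latter, miR-199a-3p, was at 207% of its MEF mean in NT-iPSCs, 167% in NT-ESCs, 46.5% in iPSCs and 9.27% in ESCs. In the reprogrammed types miR-100-5p was at 0.622% to 1.66% of MEFs, and miR-125b-5p at 14% to 56.0% lay between the 2 arms of miR-199a.

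**Figure D2:**
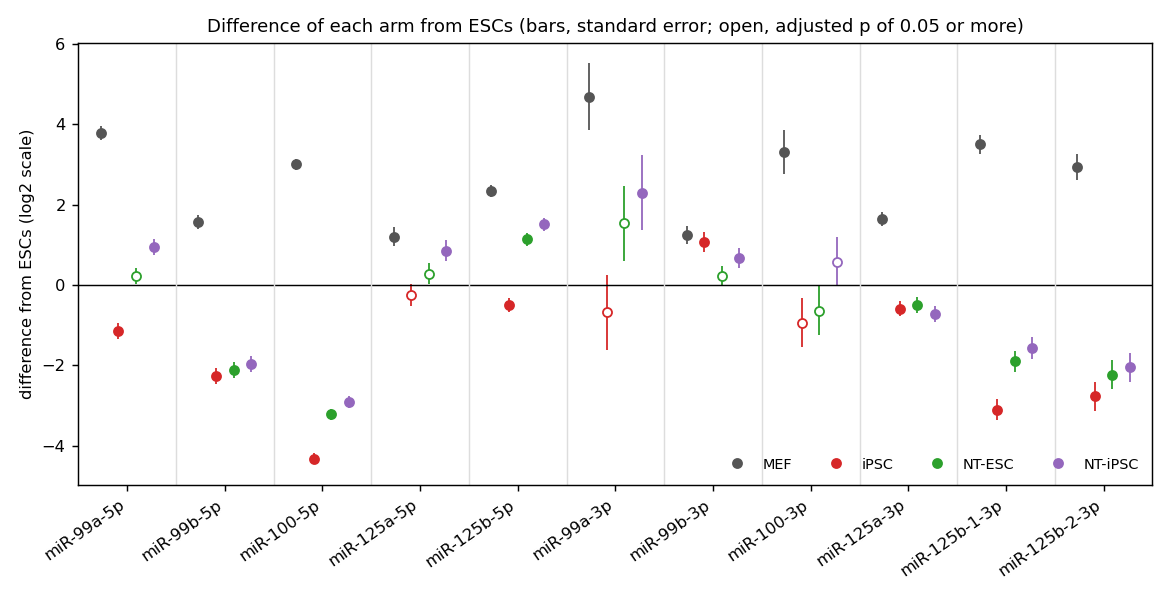
Difference of each arm from ESCs for the other 4 cell types on the log2 scale, with the standard error from limma and filled points for an adjusted p under 0.05. miR-100-5p lies at -2.91 to -4.33 in the 3 reprogrammed types, and miR-125b-5p lies below ESCs in iPSCs (-0.50) but above them in NT-ESCs and NT-iPSCs (1.13 and 1.51).

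The 3p arms of miR-125b are known as passenger strands, and each comes from 1 of the 2 miR-125b copies. Their levels need not follow the output of that copy, since the balance of 5p and 3p reads also changed (below). Both 3p arms were lower in every reprogrammed type than in ESCs, also in NT-ESCs and NT-iPSCs, where the 5p arm was higher. miR-125b-1-3p had VST levels of 15.25, 14.68 and 15.22 in MEFs, 9.69 and 10.26 in NT-iPSCs, 9.49 and 9.79 in NT-ESCs, 8.28 and 8.60 in iPSCs, and 11.44, 11.27 and 11.94 in ESCs. Its difference from ESCs was -1.57 for NT-iPSCs (adjusted p = 0.000217), -1.91 for NT-ESCs (adjusted p = 5.1e-05) and -3.11 for iPSCs (adjusted p = 7.5e-07). miR-125b-2-3p had 347, 256 and 290 reads in MEFs, 56, 46 and 35 in ESCs, and 7 to 18 in a reprogrammed library, and its differences from ESCs were -2.05, -2.23 and -2.77 in NT-iPSCs, NT-ESCs and iPSCs (adjusted p = 0.000305, 0.000161 and 2.69e-05). In both arms the 6 reprogrammed libraries lay below the 3 ESC libraries.

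The remaining 3p arms changed less or were rare. miR-125a-3p had VST levels of 11.78, 11.53 and 11.81 in MEFs, 9.48 and 9.20 in NT-iPSCs, 9.52 and 9.61 in NT-ESCs, 9.61 and 9.33 in iPSCs, and 9.86, 10.05 and 10.28 in ESCs. MEF libraries were high and the reprogrammed libraries lay just below the ESC libraries. Its difference from ESCs was -0.72 for NT-iPSCs (adjusted p = 0.00506), -0.50 for NT-ESCs (adjusted p = 0.0336) and -0.59 for iPSCs (adjusted p = 0.0146). The last was not called without iPSC library 63 (-0.45, adjusted p = 0.109) or ESC library 4 (-0.48, adjusted p = 0.0506), and that in NT-ESCs was not called without either NT-ESC library (-0.45 and -0.54, adjusted p = 0.139 and 0.0821) or without ESC libraries 3 or 4 (-0.51 and -0.39, adjusted p = 0.0624 and 0.103). Both were also not called with upper quartile scaling (-0.43 and -0.26, adjusted p = 0.0563 and 0.216) or total read scaling (-0.17 and -0.44, adjusted p = 0.448 and 0.0694).

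miR-99b-3p had VST levels from 11.15 in an ESC library to 12.72 in iPSC library 63. It was above ESCs by 1.08 ± 0.25 in iPSCs (adjusted p = 0.00194), a value that became 0.61 without iPSC library 63 (adjusted p = 0.025), and by 0.68 ± 0.25 in NT-iPSCs (adjusted p = 0.026), the latter not called without NT-iPSC library 51 (0.58, adjusted p = 0.131) or 52 (0.77, adjusted p = 0.0556) or without ESC library 3 (0.67, adjusted p = 0.0572) or 4 (0.66, adjusted p = 0.0576). Nor was it called with total read scaling (0.55, adjusted p = 0.0583) or a TMM-type scaling (0.48, adjusted p = 0.0736). miR-99a-3p had 21 to 34 reads in MEFs, 0 to 2 in ESCs and iPSCs, 3 and 6 in NT-ESCs, and 6 and 9 in NT-iPSCs. miR-100-3p had 19 to 30 reads in MEFs and 1 to 6 in every other library. At so few reads a fitted difference depends on the transformation. miR-99a-3p counts among the 5 arms higher in NT-iPSCs than in ESCs (2.29, adjusted p = 0.0434). That call was lost without MEF library 14 or 15, ESC library 2, or any NT-iPSC or NT-ESC library (adjusted p of 0.0538 to 0.17), with total read (2.25, adjusted p = 0.0598) or TMM-type scaling (2.17, adjusted p = 0.0578), with no trend (adjusted p = 0.0501) and in a fit to the 2 types alone (adjusted p = 0.0761).

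The balance of the 2 arms of a hairpin is a ratio within a library and does not depend on scaling. It was compared after the levels had been seen, as log2 of 5p over 3p reads with 1 read added to each, over the 308 hairpins with both arms measured. For miR-99b the ratio was 7.06, 7.18 and 7.39 in MEFs and 6.88, 6.81 and 6.98 in ESCs, but 4.08 and 4.42 in NT-iPSCs, 4.45 and 4.66 in NT-ESCs, and 3.98 and 3.10 in iPSCs. The 3p arm thus made up 0.59% to 0.883% of the hairpin's reads in MEF and ESC libraries and 3.81% to 10.4% in the other 6. For miR-125b-1 the ratio moved the other way. It was 2.21, 2.49 and 2.45 in MEFs, 3.76, 3.81 and 3.10 in ESCs, 6.99 and 6.28 in NT-iPSCs, 6.62 and 6.56 in NT-ESCs, and 6.20 and 6.14 in iPSCs. In both hairpins the reprogrammed libraries stood apart from the MEF and ESC libraries without overlap.

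Against ESCs, the ratio of miR-99b differed by -2.64 in NT-iPSCs, -2.34 in NT-ESCs and -3.35 in iPSCs (adjusted p = 1.59e-05, 3.42e-05 and 3.79e-06). In the same order, that of miR-125b-1 differed by 3.08, 3.03 and 2.61 (adjusted p = 1.08e-05, 1.16e-05 and 2.68e-05). The ratio of miR-125b-2 differed by 3.55, 3.36 and 2.27 (adjusted p = 1.6e-05, 2.2e-05 and 0.000234), with the 5p reads of the 2 copies counted together in both. The ratio of miR-100 differed by -3.32, -2.47 and -3.28 (adjusted p = 0.000907, 0.00483 and 0.000967), on 1 to 6 reads of the 3p arm. The ratio of miR-125a was higher in NT-iPSCs only by the test (1.57, adjusted p = 0.00692), and without NT-iPSC library 52 it was 1.0 higher (adjusted p = 0.0646). A changed ratio was called for 5, 4 and 4 of the 6 member hairpins, and for 75.3%, 74% and 73.1% of all hairpins, shares near those of the members.

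MEFs and ESCs differed in 1 member hairpin, miR-125b-1, which was 1.17 ± 0.23 lower in MEFs (difference -1.17, adjusted p = 0.00538), and in 31.5% of all hairpins. From the mean of the 4 pluripotent types, MEFs differed in 5 of the 6, the exception being miR-99a, and in 72.7% of all hairpins. With 5 reads added to each arm in place of 1, miR-99a was called as well (1.17, adjusted p = 4.55e-05). Against MEFs, the ratio was changed for 5 member hairpins in NT-iPSCs, 5 in NT-ESCs and 4 in iPSCs, where 72.7%, 71.4% and 70.1% of all hairpins were. With 5 reads added the ratio of miR-99a was also called in each, at -0.82, -1.05 and -1.65 (adjusted p = 0.00267, 0.000598 and 3.9e-05). In NT-ESCs the count became 3 without NT-ESC library 72, the calls of miR-100 (-1.72, adjusted p = 0.0636) and miR-125a (1.30, adjusted p = 0.0721) being lost, and miR-125a was also lost without MEF library 13 (0.96, adjusted p = 0.0655) or NT-ESC library 71 (1.16, adjusted p = 0.101).

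Between reprogrammed types few of the 308 ratios differed by the same test, limma. 0 of the 6 member hairpins were called in any of the 3 contrasts, where 0.325%, 0% and 0.325% of all hairpins were called. At an unadjusted p under 0.05, 2 member hairpins differed between NT-ESCs and iPSCs, 3 between NT-iPSCs and iPSCs, and 0 between NT-iPSCs and NT-ESCs, where 14.6%, 16.2% and 7.47% of all hairpins did. Without iPSC library 62 the miR-99b ratio was called higher in NT-ESCs than in iPSCs (1.45, adjusted p = 0.0345). The 6 reprogrammed libraries also had the largest size factors of the series and differed from the MEF and ESC libraries in the sequencing measures given at the start. The part of either in the arm ratios was not tested.

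**Figure D3:**
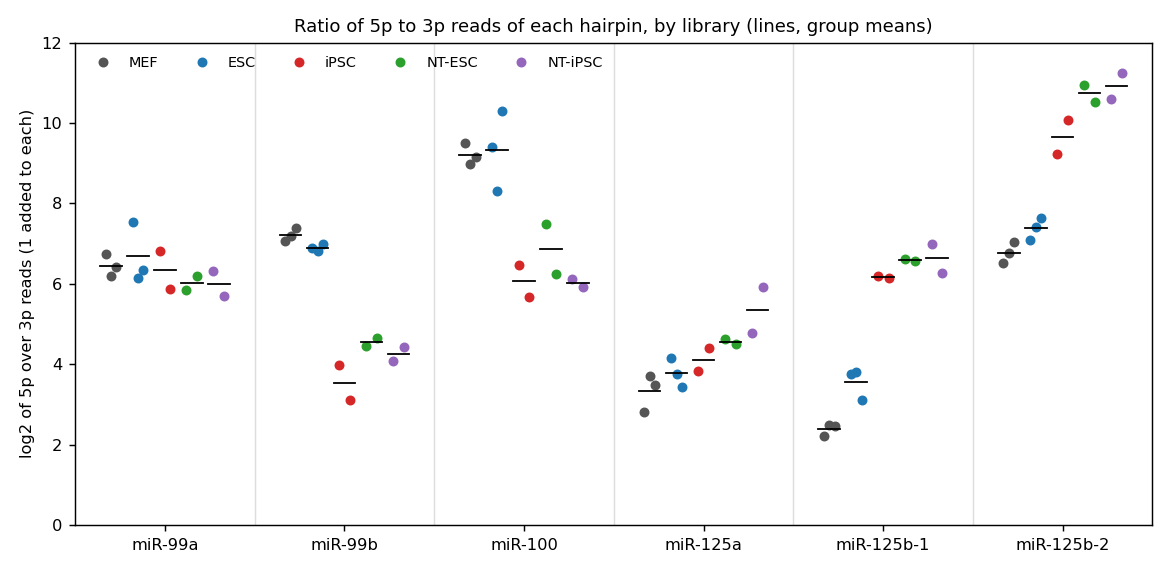
Log2 of 5p over 3p reads for the 6 member hairpins, with 1 read added to each arm, by library and with group means as lines. In reprogrammed libraries the ratio of miR-99b lies at 3.10 to 4.66 against 6.81 to 7.39 in MEFs and ESCs, and that of miR-125b-1 at 6.14 to 6.99 against 2.21 to 3.81.

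The 11 arms took up 1.94%, 2.95% and 3.18% of all miRNA reads in MEFs, 0.759% and 0.824% in NT-iPSCs, 0.698% and 0.737% in NT-ESCs, 0.568% and 0.560% in iPSCs, and 1.5%, 1.30% and 1.51% in ESCs. The share was 2.69% in MEFs and 0.939% over the 9 pluripotent libraries, with no overlap (exact two-sided permutation test, p = 0.00455, adjusted over 9 tests 0.0205, the smallest p this design allows). It was 1.43% in ESCs and 0.691% over the 6 reprogrammed libraries, again with no overlap (exact permutation p = 0.0119, adjusted 0.0357, also the smallest possible). With 3 libraries against 3, MEFs against ESCs could not go below the exact p of 0.1 that was found. In MEFs miR-99b-5p gave most of the share, at 1.22, 2.18 and 2.28 reads per 100 miRNA reads.

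Which miRNA carried a seed also differed between cell types. Of the reads with the seed ACCCGUA, miR-99b-5p made up 86.1%, 90.4% and 91.1% in MEFs and 95.2% to 98.4% in the 9 pluripotent libraries (exact permutation p = 0.00455, adjusted 0.0205, and higher in each of these 9). ESCs and reprogrammed cells differed by -0.784 percentage points in this share (exact permutation p = 0.321, adjusted 0.362). Of the reads of miR-125a-5p plus miR-125b-5p, miR-125b-5p made up 88.0%, 79.1% and 83.8% in MEFs, 84.3% and 72.7% in NT-iPSCs, 79.7% and 82.6% in NT-ESCs, 67.0% and 67.0% in iPSCs, and 69.5%, 70.7% and 71.4% in ESCs. The NT-ESC libraries and 1 NT-iPSC library lay within the MEF range, while ESC and iPSC libraries lay below it. MEFs and the pluripotent libraries overlapped (exact permutation p = 0.05, adjusted 0.112, and p = 0.0364 without MEF library 14, 0.0182 without NT-iPSC library 51, 0.0424 without NT-ESC library 71 and 0.0303 without NT-ESC library 72), and for ESCs against reprogrammed cells the exact permutation p was 0.381.

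**Figure D4:**
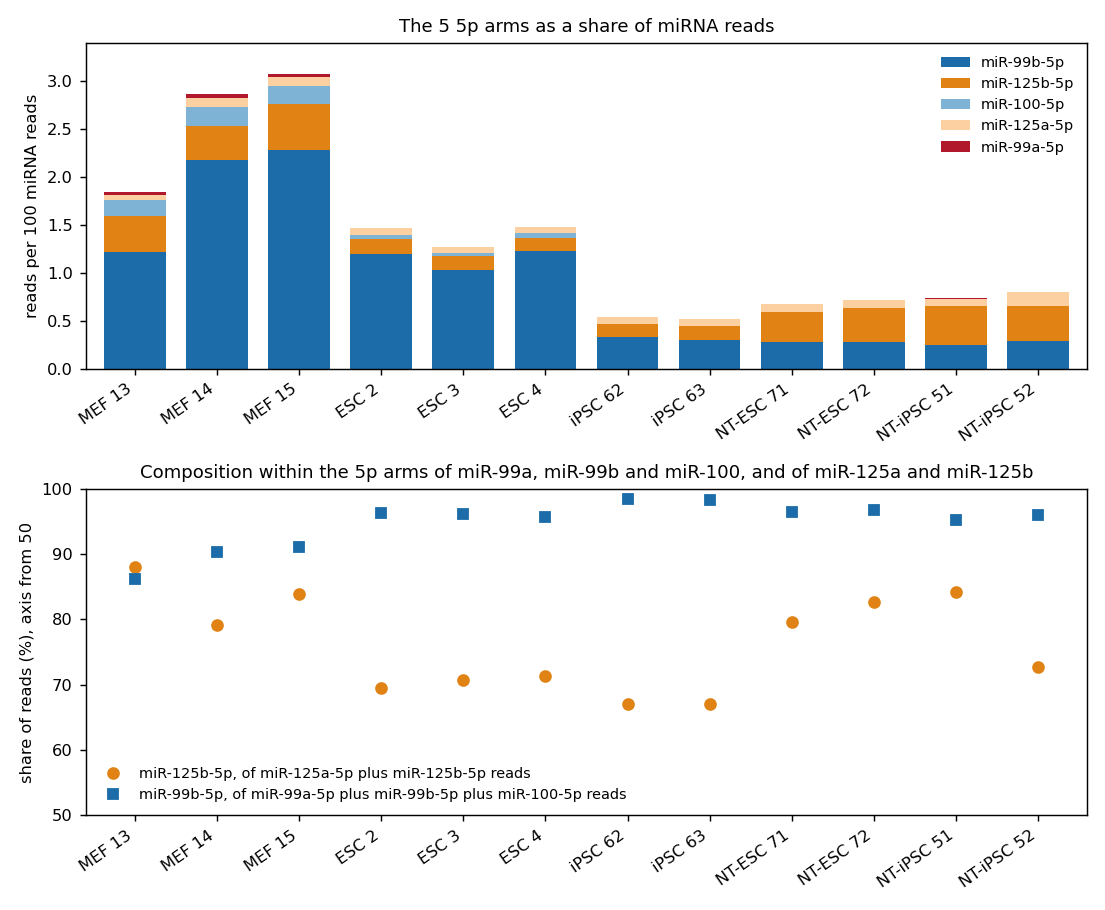
Above, reads of the 5p arms per 100 miRNA reads in each library, stacked, and below, the percentage taken by miR-99b-5p of the reads of miR-99a-5p, miR-99b-5p and miR-100-5p (squares) and by miR-125b-5p of the reads of miR-125a-5p and miR-125b-5p (circles), with the axis starting at 50%. The stacks fall from MEFs to ESCs to reprogrammed cells, and miR-125b-5p takes 67.0% to 71.4% of this pair's reads in ESCs and iPSCs against 72.7% to 88.0% in the other types.

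The 6 let-7 arms of the same clusters are all given here. All were higher in MEFs than in ESCs under each scaling, and higher than the mean of the pluripotent types except under total read scaling, where 4 were, let-7e-5p lay at -0.22 (adjusted p = 0.126) and let-7e-3p at 0.72 (adjusted p = 0.0719). Among them, let-7a-2-3p and let-7c-1-3p passed the read filter through MEF libraries alone, so their higher level in MEFs was largely set by it. let-7e-5p, between miR-99b and miR-125a, had VST levels of 18.59, 18.48 and 19.00 in MEFs, 19.08 and 19.21 in NT-iPSCs, 18.56 and 18.61 in NT-ESCs, 17.38 and 17.45 in iPSCs, and 16.49, 16.83 and 16.43 in ESCs. It exceeded ESCs by 2.56 for NT-iPSCs (adjusted p = 1.4e-07), 2.00 for NT-ESCs (adjusted p = 1.25e-06) and 0.83 for iPSCs (adjusted p = 0.00141), where miR-99b-5p was lower in each. Within a library, the log2 ratio of miR-99b-5p to let-7e-5p reads was 0.60 to 1.30 in MEFs and 1.14 to 1.70 in ESCs, but -3.05 and -3.02 in NT-iPSCs, -2.64 and -2.60 in NT-ESCs, and -1.61 and -1.62 in iPSCs. From ESCs to reprogrammed cells miR-99b-5p and let-7e-5p, neighbours within 692 bp, thus changed in opposite directions. The other arm of the miR-99b hairpin, miR-99b-3p, did not go down with miR-99b-5p. Its mean VST levels were 11.18 in ESCs, 11.41 in NT-ESCs, 11.86 in NT-iPSCs and 12.26 in iPSCs. It was called above ESCs in iPSCs and NT-iPSCs, the latter not under every scaling.

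let-7a-5p and let-7c-5p, which also come from hairpins outside these clusters, exceeded ESCs by 2.12 and 1.49 in NT-iPSCs (adjusted p = 7.63e-07 and 1.48e-05) and by 1.63 and 1.19 in NT-ESCs (adjusted p = 7.14e-06 and 9.4e-05). Their values in iPSCs were -0.23 and -0.29 (adjusted p = 0.267 and 0.159). The 3p arms that belong to the cluster copies alone were rare. let-7e-3p had 30, 52 and 52 reads in MEFs, 61 and 44 in NT-iPSCs, 54 and 47 in NT-ESCs, 15 and 10 in iPSCs, and 2, 6 and 7 in ESCs. Its difference from ESCs was 3.0 for NT-iPSCs (adjusted p = 8.9e-05), 2.88 for NT-ESCs (adjusted p = 0.000122) and 0.83 for iPSCs (adjusted p = 0.114, and 1.24 with adjusted p = 0.0326 under total read scaling), so it was higher in NT-iPSCs and NT-ESCs as let-7e-5p was. The other two were not: let-7a-2-3p had 21, 20 and 12 reads in MEFs, 1 read in 1 ESC library and 0 in the other 8 libraries, and let-7c-1-3p had 23, 31 and 26 reads in MEFs, 3, 3 and 0 in ESCs and 0 in the 6 reprogrammed libraries. A count of 0 allows up to 3 reads, and this covers counting error only. Over the let-7 family of 9 5p arms, 9 were higher than in ESCs in NT-ESCs, 9 in NT-iPSCs, and 2 in iPSCs, where 2 were lower (5 higher and 0 lower with total read scaling). Of all miRNAs tested, 39.8%, 41.1% and 39.8% were higher in these contrasts, and 36.1% were lower in iPSCs.

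Relatives of the members by sequence or seed were also low in reprogrammed cells. miR-351-5p, the third bearer of the seed CCCUGAG, and miR-10a-5p, which shares the stretch after the shifted seed with miR-100-5p, are shown to place them beside the members.
miR-351-5p: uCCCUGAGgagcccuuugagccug
miR-10a-5p: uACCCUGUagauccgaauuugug
miR-351-5p, with 536 to 654 reads in MEFs and 156 to 179 in ESCs, differed from ESCs by -1.05 for NT-iPSCs (adjusted p = 0.000365), -1.44 for NT-ESCs (adjusted p = 3.19e-05) and -1.78 for iPSCs (adjusted p = 5.02e-06), whereas miR-125b-5p was higher in the first 2 of these. miR-10a-5p differed by -0.52, -0.94 and -2.43 in the same order (adjusted p = 0.00474, 6.67e-05 and 2e-08), the first not called with upper quartile scaling (-0.27, adjusted p = 0.0881). miR-10b-5p differed by -3.12, -3.58 and -5.10 (adjusted p = 2.76e-08, 9.51e-09 and 6.35e-10), and its means were 1.28%, 0.940% and 0.324% of the MEF mean, beside 1.66%, 1.34% and 0.622% for miR-100-5p.

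The reprogrammed types were also set against each other. Each type was 1 line, so the route of reprogramming and the line cannot be told apart in these contrasts. NT-ESCs exceeded iPSCs in 4 arms and were lower in 1, where 12.6% of all miRNAs tested were higher and 13.1% lower (25.7% in either direction). miR-125b-5p was 1.63 ± 0.18 higher (adjusted p = 0.000266), miR-99a-5p 1.38 ± 0.21 (adjusted p = 0.00111), miR-125b-1-3p 1.20 ± 0.29 (adjusted p = 0.012) and miR-100-5p 1.10 ± 0.16 (adjusted p = 0.000657). The arm that was lower, miR-99b-3p (-0.85 ± 0.27, adjusted p = 0.0406), had the value -0.38 without iPSC library 63 (adjusted p = 0.268) and -1.31 without library 62 (adjusted p = 0.0043). It was not called with upper quartile scaling (-0.77, adjusted p = 0.0511), with no trend (adjusted p = 0.0671) or in a fit to the 2 types alone (adjusted p = 0.163), and was also not called without either NT-iPSC library, either NT-ESC library or any ESC library (-0.79 to -0.91, adjusted p of 0.0525 to 0.177). Without NT-ESC library 72, 3 arms were called in place of 5, miR-125b-1-3p (1.05, adjusted p = 0.0912) and miR-99b-3p (-0.79, adjusted p = 0.177) being lost, and miR-125b-1-3p was also lost without iPSC library 62 (1.04, adjusted p = 0.0727).

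NT-iPSCs, made from iPSC nuclei, exceeded iPSCs in 5 arms and were lower in none (in 2 with total read scaling, miR-99b-3p and miR-125a-3p, at -0.94 and -0.67, adjusted p = 0.0171 and 0.0334), where 13.4% of all miRNAs tested were higher and 13.1% lower (26.5% in either direction). miR-99b-3p was also called lower without iPSC library 62 (-0.86, adjusted p = 0.0246). miR-99a-3p was called as a further arm higher with upper quartile scaling (3.01, adjusted p = 0.0453), log2 of normalized reads plus 1 (2.21, adjusted p = 0.0184), voom (2.98, adjusted p = 0.00886), and without iPSC library 63 (4.28, adjusted p = 0.0228) or ESC library 2 (2.98, adjusted p = 0.0143). miR-99a-5p was 2.10 ± 0.21 higher (adjusted p = 5.62e-05), miR-125b-5p 2.00 ± 0.18 (adjusted p = 5.15e-05), miR-125b-1-3p 1.53 ± 0.29 (adjusted p = 0.00279) and miR-100-5p 1.42 ± 0.16 (adjusted p = 9.09e-05). With total read scaling they lay at 1.56, 1.46, 0.99 and 0.88 in this order (adjusted p of 0.000121 to 0.0153). miR-125a-5p was 1.11 ± 0.29 higher (adjusted p = 0.0175), and was not called without NT-iPSC library 52 (0.67, adjusted p = 0.143), without iPSC library 62 (0.97, adjusted p = 0.0965) or with total read scaling (0.56, adjusted p = 0.191). miR-99b-5p differed by 0.31 ± 0.22 (adjusted p = 0.329). All 8 fibroblast markers were higher in NT-ESCs than in iPSCs and in NT-iPSCs than in iPSCs (7 and 6 of them with total read scaling), as were all 9 let-7 5p arms, and the part of fibroblast RNA in these differences was not tested.

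NT-iPSCs and NT-ESCs, the 2 types that passed through an oocyte, differed in 1 arm, where 5.6% of all miRNAs tested were higher in NT-iPSCs and 12.8% were called in either direction. miR-99a-5p was 0.72 ± 0.21 higher in NT-iPSCs (adjusted p = 0.0486). The adjusted p ran from 0.0502 to 0.205 when MEF libraries 14 or 15, any ESC library or any NT-ESC or NT-iPSC library was left out, with values of 0.67 to 0.78. With total read and TMM-type scaling the values were 0.54 and 0.66 (adjusted p = 0.119 and 0.0836).

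The miRNAs outside the members and the let-7 family of 9 5p arms whose levels most resembled those of each 5p arm were ranked by Pearson's r over the 12 libraries, which share depth and scaling, among 712 candidates. For miR-100-5p they were miR-10b-5p (0.997) and miR-196b-5p (0.997), both encoded in Hox clusters, and for miR-99b-5p they were miR-28-5p (0.992) and miR-155-5p (0.990). For miR-99a-5p they were miR-181a-2-3p (0.989) and miR-483-5p (0.987), for miR-125b-5p miR-383-5p (0.967) and miR-10a-3p (0.950), and for miR-125a-5p miR-29b-3p (0.901) and let-7d-3p (0.878). Among the members, miR-100-5p was most like miR-99b-5p (0.988) and miR-125b-5p was most like miR-99a-5p (0.909). These values describe 5 cell types and carry no test.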

How the data were processed

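Small RNA sequencing of 12 libraries, 3 each from MEFs and ESCs and 6 from the reprogrammed types, was analysed. The authors removed adaptors and low quality tags, annotated and counted the reads per miRNA, normalized them with DESeq and deposited variance-stabilized values on a log2 scale. Their processing notes name the build mm8, and the version of the normalization tool is not given in the sources used here. The transformation was inverted, and 100% of nonzero values gave whole reads within 0.05 read. At these depths (4863365 to 8608689 miRNA reads), 3 reads, the limit that a count of 0 allows, stand for a CPM of 0.348 to 0.617.

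The deposited values were compared with limma (3.58.1, R 4.3.3) in 1 model of the 5 types, with empirical Bayes moderation, a trend, and Benjamini-Hochberg adjustment over the 732 miRNAs that reached 10 reads in 2 or more libraries. At many reads a VST lies about 2.04 above log2 of normalized reads, and at few reads it compresses changes. Ratios of 5p to 3p reads were tested in the same way over 308 hairpins, with the mean log2 reads of the lower arm as the covariate of the prior, an analysis and alternatives chosen after seeing the data. Shares were compared with exact two-sided permutation tests (scipy 1.17.1, Python 3.11.15). In counts simulated for MEFs against ESCs over 732 miRNAs, the limma test called 72% of miRNAs changed by 1 log2 unit, 87% of those changed by 2 and 1.5% of the rest. For NT-ESCs against iPSCs, also over 732 miRNAs, these were 60%, 82% and 0.564%. The simulated counts had an assumed spread, the same mean in all types for unchanged miRNAs, and as many miRNAs raised as lowered. These rates hold for those settings and do not measure power or error in the libraries themselves.

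Members were chosen by name, and every one is reported, with the let-7 arms of their clusters, miR-351-5p, miR-10a-5p, miR-10b-5p and the 2 most alike miRNAs of each 5p arm. Members, lists and tests were chosen with earlier results of these data known. Alternatives were other scalings (upper quartile, total reads, and a TMM-type mean trimming 30% of log ratios and 5% of abundances), another scale (log2 of normalized reads plus 1), no trend, voom, other filters, a fit to the 2 compared types alone, a required difference of 1, other forms of the shares, and each library left out. Hairpins were placed with GENCODE M21 (GRCm38), since the deposited table holds no coordinates.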

Additional observations from a re-analysis of the deposited data

Results flagged for a closer look

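In 11 cases the departure of a member from ESCs differed between a pair of reprogrammed types by the test of that difference itself, limma with an adjusted p under 0.05 over 732 miRNAs. Between NT-ESCs and iPSCs the difference was 1.63 for miR-125b-5p, 1.38 for miR-99a-5p, 1.20 for miR-125b-1-3p, 1.10 for miR-100-5p and -0.85 for miR-99b-3p on the log2 scale. Between NT-iPSCs and iPSCs it was 2.10 for miR-99a-5p, 2.00 for miR-125b-5p, 1.53 for miR-125b-1-3p, 1.42 for miR-100-5p and 1.11 for miR-125a-5p. Between NT-iPSCs and NT-ESCs it was 0.72 for miR-99a-5p. Of all miRNAs tested, 25.7%, 26.5% and 12.8% were called in these 3 contrasts. When each of the 12 libraries was left out in turn, the call of miR-99b-3p was lost in 8 of the 12 fits and that of miR-99a-5p between NT-iPSCs and NT-ESCs in 9, while miR-125b-1-3p between NT-ESCs and iPSCs and miR-125a-5p were each lost in 2 and the other 7 calls in 0. The ESC libraries are shared by both sides of each pair and drop out of the difference. No group had the 4 libraries needed to look for a single library far from the others.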

How the results depend on the processing

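No paired analysis was possible because no library number occurs in 2 cell types. Of 3443 recomputed values of single arms and ratios, 3281 kept their direction and side of the threshold, 87 lost and 29 gained a call in the same direction, and 46 turned direction, 5 of them called before or after and 41 not. With total miRNA reads as the scaling, miR-99b-3p in MEFs against the pluripotent types was -0.23 (adjusted p = 0.241), in iPSCs against MEFs 1.14 (adjusted p = 0.000977), and miR-125a-5p in NT-ESCs against MEFs 0.03 (adjusted p = 0.928), and 7 arms in place of 11 were called in NT-ESCs against MEFs. Values not called that turned under it were those of miR-125a-5p (0.16 in iPSCs against ESCs, 0.42 in NT-iPSCs against MEFs), miR-99b-3p (0.20 in NT-iPSCs against MEFs), miR-125a-3p (-0.27 in NT-ESCs against iPSCs) and miR-99b-5p (-0.19 and -0.23 in NT-ESCs and NT-iPSCs against iPSCs, -0.04 in NT-iPSCs against NT-ESCs), and with TMM-type scaling miR-99b-3p in iPSCs against MEFs (0.18). Total read scaling lowers every MEF level against the others. It moved the higher share of all calls from 49.5% to 29.6% for MEFs against ESCs, and from 55.4%, 54.6% and 56.2% to 68.1%, 66.2% and 65.1% for iPSCs, NT-ESCs and NT-iPSCs against MEFs. For NT-ESCs and NT-iPSCs against iPSCs it moved from 48.9% and 50.5% to 25.1% and 21%, and for NT-iPSCs against NT-ESCs from 43.6% to 20.8%. For MEFs against ESCs the share was 60.4% with upper quartile and 37.8% with TMM-type scaling.

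A minimum difference of 1 left 6 of 10 arms in NT-iPSCs against ESCs, and fitting only the groups compared left 3 of 5 in NT-iPSCs against iPSCs. The 1 call in NT-iPSCs against NT-ESCs became 0 with total read or TMM-type scaling, no trend, no filter, only the groups compared or a minimum difference of 1, and 0 to 1 with a library left out. Leaving out a library gave 3 to 5 arms in NT-ESCs against iPSCs. The share of miR-125b-5p in MEFs exceeded that in pluripotent cells by 9.79 points (exact permutation p = 0.05), by 11.2 with both arms summed (p = 0.0318), and by 7.61 to 12.1 with a library left out.

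With 5 reads added to each arm in place of 1, the ratio of miR-99a, whose 3p arm had 0 to 9 reads outside MEFs, turned to 1.14 in MEFs against ESCs (adjusted p = 0.000488) and to 0.83 in NT-iPSCs against iPSCs (adjusted p = 0.0428), so that 2 hairpins were called in each, with miR-125b-1 in the former and miR-125b-2 (1.41, adjusted p = 0.0313) in the latter. It was also called in iPSCs against ESCs (-0.51, adjusted p = 0.0256). Without a call it turned to 0.09 and 0.32 in NT-ESCs and NT-iPSCs against ESCs, 0.60 in NT-ESCs against iPSCs and 0.23 in NT-iPSCs against NT-ESCs, as did the ratio of miR-100 in MEFs against ESCs (0.82) and NT-iPSCs against iPSCs (0.60). With a library left out, 27 values not called turned direction. The levels ran from -1.98 to 0.61 for miR-99a-3p in iPSCs against ESCs, -1.31 to 0.03 for miR-100-3p in NT-ESCs against ESCs and -0.37 to 0.97 against iPSCs, -0.63 to 0.30 for miR-99b-3p in iPSCs against MEFs and -0.86 to 0.07 in NT-iPSCs against iPSCs, -0.78 to 0.08 for miR-125a-5p in NT-iPSCs against MEFs, -0.05 to 0.24 and -0.27 to 0.01 for miR-125a-3p in NT-ESCs and NT-iPSCs against iPSCs, and -0.21 to 0.57 for miR-125b-2-3p in NT-iPSCs against NT-ESCs. The ratio of miR-99a ran from -0.50 to 0.20 in MEFs and -0.83 to 0.13 in iPSCs against ESCs, -0.59 to 0.37 in iPSCs against MEFs, -0.80 to 0.16 and -0.82 to 0.14 in NT-ESCs and NT-iPSCs against iPSCs, and -0.32 to 0.29 in NT-iPSCs against NT-ESCs. That of miR-100 ran from -0.64 to 0.36 in MEFs against ESCs and -0.44 to 0.36 in NT-iPSCs against iPSCs, and in NT-iPSCs against NT-ESCs those of miR-125b-1 and miR-125b-2 ran from -0.31 to 0.40 and -0.13 to 0.50. Leaving out a library gave 3 to 5 hairpins in NT-ESCs against MEFs and 0 to 1 in NT-ESCs against iPSCs. Arms with under 10 reads in most libraries, miR-99a-3p and miR-100-3p, are limited by depth. With 2 libraries in a type, a library left out leaves 1, which is assumed to vary like the others. Beyond fewer libraries, a stricter rule or another scaling, the cause of these changes was not tested.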
